A study of Mus musculus with 44 samples.

Results

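The 10 genes described here are those that a mature fat cell of the dermis uses for its hormones, its lipid droplet and its handling of fatty acids. They were named from a list of adipocyte genes, not picked by a threshold on the values: Adipoq, Lep and Cfd, whose products are secreted, the regulator Pparg, the lipid droplet genes Plin1, Plin4 and Cidec, the fatty acid uptake genes Lpl and Fabp4, and Lipe, which encodes hormone-sensitive lipase. All 10 were among the 43411 genes of the deposited table, and all 10 were among the 17037 genes tested, which were those with a mean normalized count above 3. The lowest number of reads on any of them in any mouse was 23.

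Dermal adipocytes form a layer of white fat below the dermis, above a thin sheet of striated muscle. Each cell stores triglyceride in a large droplet coated with perilipins, fills it with fatty acids that lipoprotein lipase frees from circulating lipoproteins or that the cell makes itself, and empties it by lipolysis when hormones call for it. The layer is known to thicken and thin with the hair cycle, to shrink in fibrotic skin, and to secrete leptin and adiponectin.

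Back skin was taken from 44 wild-type female C57Bl/6 mice that were 8 weeks old when the experiment began, and RNA-seq was run on a part of each biopsy. A total of 10 mice were given saline, 10 bleomycin for 2 weeks and 10 bleomycin for 4 weeks, by daily injection of 100 µL under the back skin. The bleomycin concentration is given as 1 U/mL in one part of the study's text and as 0.1 U/mL in another. The last groups had 4 weeks of bleomycin and were then left untreated for 6 weeks (6 mice) or 10 weeks (8 mice). Bleomycin is a DNA-damaging drug whose repeated injection makes the skin fibrotic. The groups therefore also differ in age at harvest, and the time at which the saline mice were taken was not given in the sources used here, so treatment and age cannot be told apart.

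Each library held between 8509094 and 15285577 reads on genes (median 11310008). Values below are normalized counts, that is reads divided by a size factor for each mouse. They come from pieces of whole skin, in which fewer fat cells and less RNA per fat cell cannot be told apart. The 6 fibroblast markers and the 7 sebaceous gland markers were present in every group, as skin should show, with summed normalized counts of at least 49270.3 and 2232 in any mouse. Skeletal muscle markers summed to between 77258.5 and 336460 over the mice. Of 5 milk genes used as markers of mammary tissue, Csn1s1, Wap and Lalba had at most 3 reads in every mouse. Saline mouse 1 and 2 weeks bleomycin mouse 2 correlated least with their own groups across genes (median r 0.942 and 0.938), and they were also low in fat cell genes: the first was the lowest of its group for 8 of the 10 genes and the second for 5 of 10. Where leaving out either mouse changed a call against saline, or moved a printed log2 fold change of the 10 genes against saline by over 1.5 times, the value without it is given beside the result.

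Lep, the gene of the satiety hormone leptin, lies on chromosome 6 at 29060220 to 29073877 of GRCm38 on the plus strand, and Adipoq, the gene of the hormone adiponectin, on chromosome 16 at 23146536 to 23158028 on the plus strand. These genes are shown as a pair because both encode hormones of the fat cell, and of the 10 genes Lep fell most while Adipoq was not called. Their upstream sequences, up to the RefSeq start site (RefSeq, GRCm38.p6), were as follows, with capitals for the palindrome TTGCGCAA, a form of the site bound by C/EBP factors, which drive adipocyte genes.
Lep, chr6:29059971-29060220, plus strand: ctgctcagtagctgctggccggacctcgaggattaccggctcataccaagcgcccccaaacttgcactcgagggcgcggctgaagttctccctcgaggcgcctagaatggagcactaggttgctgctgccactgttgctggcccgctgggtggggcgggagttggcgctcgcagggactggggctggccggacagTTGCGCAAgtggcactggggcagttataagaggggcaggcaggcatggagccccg
Adipoq, chr16:23146286-23146535, plus strand: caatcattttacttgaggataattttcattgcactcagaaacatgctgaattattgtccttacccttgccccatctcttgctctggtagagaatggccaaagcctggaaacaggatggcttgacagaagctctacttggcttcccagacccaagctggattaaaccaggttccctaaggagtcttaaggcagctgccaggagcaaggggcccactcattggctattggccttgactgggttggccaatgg
The palindrome ended 47 bases before the Lep start and was found nowhere in the Adipoq window. It reads the same on both strands. Of 32851 RefSeq windows of 250 bases, 0.164% held it, and of the 8 members that had a window only Lep did. The exact form of the PPAR-RXR direct repeat (spacer of any base) was in 0.0335% of the windows on either strand and in none of the members', and TATAAA was in 12.4%, among the members in that of Pparg. No window was used for Lpl or Fabp4. A match of letters is a description of the sequence only.

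In saline skin, levels per kilobase of exon placed Cfd above the rest, at 12975.5 ± 3012.7 normalized counts per kilobase (SD, n = 10). Cfd encodes adipsin, a complement protease named for its abundance in fat. Adipoq followed at 1483 ± 342 and Fabp4 at 1439.67 ± 231, then Cidec at 888 ± 268, Lpl at 633 ± 70.6, Plin4 at 428 ± 166, Lipe at 257 ± 47.8, Plin1 at 197 ± 59.0, Lep at 145 ± 41.0 and Pparg at 106 ± 20.3 (all SD, n = 10). Only the step from Cfd to Adipoq separated the ranges of the mice, and each later pair of neighbours overlapped. Within single mice the order was steadier: Fabp4 exceeded Cidec, and Lipe exceeded Plin1, in 10 of 10 mice, while Adipoq exceeded Fabp4 in 7 of 10. The length used was that of all annotated exons merged, so this order depends on that choice. For Fabp4 it was 4489 bases, the whole span of the gene from 10204088 to 10208576. Means not divided by length were 11963 normalized counts for Cfd, 6634 for Lpl, 6463 for Fabp4, 2471 for Plin4 and 2048 for Adipoq.

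**Figure D1:**
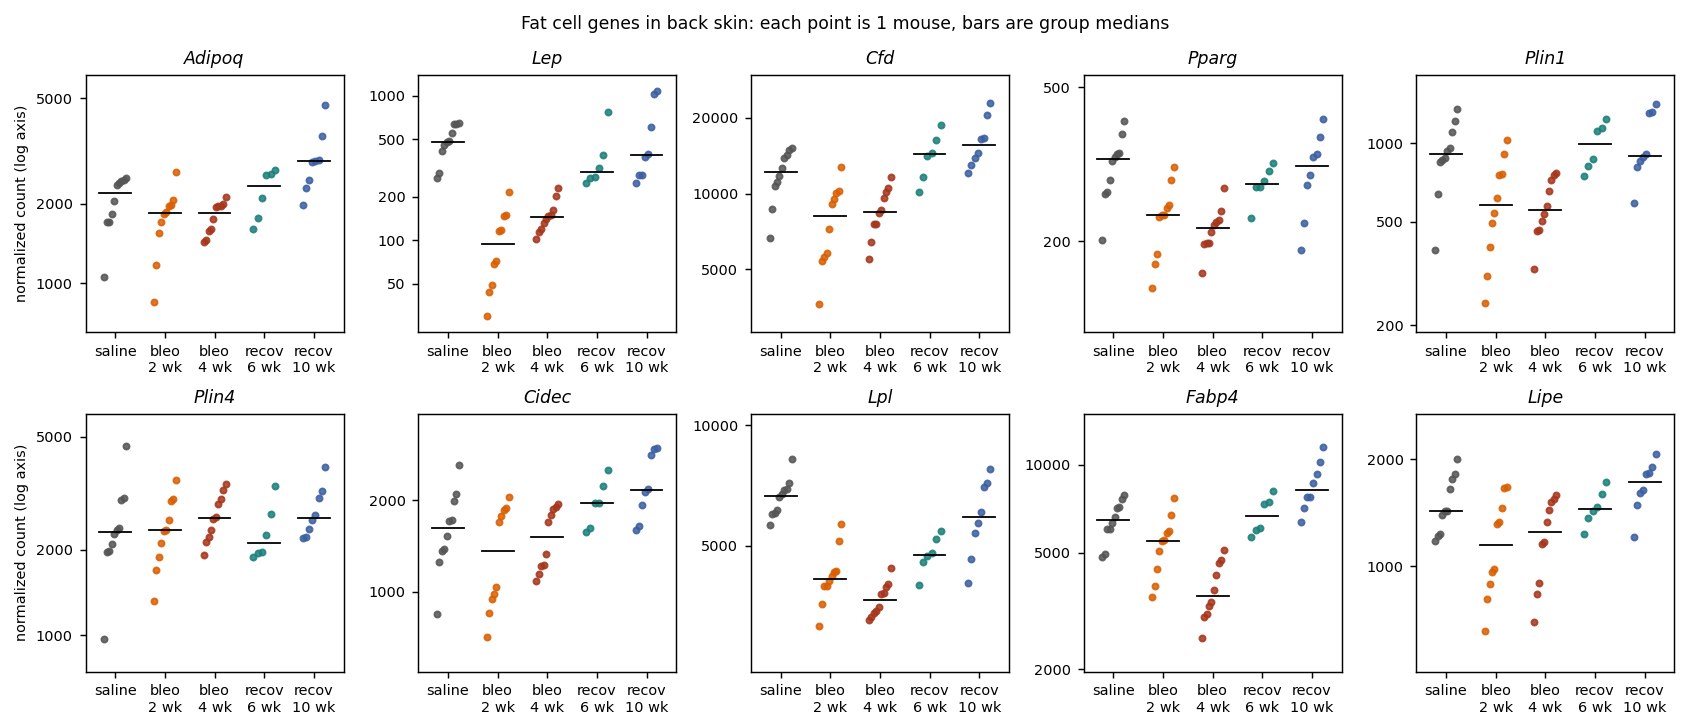
Normalized count (log axis) of each of the 10 fat cell genes in the 5 groups. Each point is 1 mouse, sorted by level within its group, and bars are group medians. Every Lep point under bleomycin lies below every saline point, whereas the groups overlap throughout for Plin4.

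The first question was what bleomycin did to these genes. After 2 weeks, 4 of the 10 genes were called lower than in saline (Lep, Cfd, Plin1 and Lpl) and none higher. A gene was called when its fold change exceeded 1.5 and its adjusted p from limma was below 0.05, and by this rule 7.43% of all tested genes were called lower and 9.3% higher. After 4 weeks, 4 of the 10 were again called lower (Lep, Plin1, Lpl and Fabp4) and none higher, beside 7.37% lower and 10.5% higher of all genes. The median log2 fold change of the 10 genes was -0.43 at 2 weeks and -0.50 at 4 weeks, where the medians of all tested genes were 0.0025 and -0.00065. Without saline mouse 1 and 2 weeks bleomycin mouse 2, the medians were -0.44 and -0.58, and 4 and 5 genes were called, the fifth being Pparg at 4 weeks. Of all genes, 15.6% and 16.9% were then called in either direction.

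Leptin showed the greatest loss of the 10. Lep ran from 268 to 653 normalized counts in saline mice (median 480.3), from 29.9 to 217 after 2 weeks of bleomycin (median 94.1) and from 103 to 229 after 4 weeks (median 144). All 10 bleomycin mice at each time therefore lay below the lowest saline mouse, a separation seen for 1.33% of all genes at 2 weeks and 2.21% at 4 weeks. The log2 fold change was -2.43 (SE 0.28, adjusted p = 2.38e-09 by limma) at 2 weeks, a 5.41-fold lower level, and -1.68 (SE 0.28, adjusted p = 5.81e-06) at 4 weeks, 3.20-fold lower. The 2 weeks group was also the most scattered, its highest mouse being 7.25 times its lowest. Between 2 and 4 weeks Lep differed by 0.76 on the log2 scale (SE 0.28, adjusted p = 0.102), which did not pass, although it did without 2 weeks bleomycin mouse 9 (0.91, adjusted p = 0.0381).

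Adipoq, the other hormone gene, was not called at either time. It ran from 1059.97 to 2508 in saline (median 2198), from 848 to 2633 at 2 weeks (median 1837) and from 1430.4 to 2120.4 at 4 weeks (median 1846). The 3 groups overlapped over most of their range. The log2 fold changes were -0.24 (SE 0.16, adjusted p = 0.246 by limma) and -0.17 (SE 0.16, adjusted p = 0.406), and the 95% interval at 4 weeks ran from -0.49 to 0.14, so a decrease short of the 1.5-fold criterion is within it. Both mice that stood apart moved these values. At 2 weeks the log2 fold change was -0.13 without 2 weeks bleomycin mouse 2 (adjusted p = 0.516 by limma), -0.34 without saline mouse 1 (adjusted p = 0.0718) and -0.23 without both (adjusted p = 0.18). At 4 weeks it was -0.28 without saline mouse 1 (adjusted p = 0.151).

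Cfd stood between the other secreted products. It lies on chromosome 10 at 79890853 to 79892655 on the plus strand. Its normalized counts ran from 6646 to 15127 in saline (median 12206), from 3656 to 12756 at 2 weeks (median 8175) and from 5497 to 11601 at 4 weeks (median 8489.8). At 2 weeks 4 of the 10 mice and at 4 weeks 2 of 10 lay below every saline mouse. The lowest of these was saline mouse 1. The next lowest was at 8695, above the medians of both bleomycin groups. The gene fell by 0.64 on the log2 scale at 2 weeks (SE 0.17, adjusted p = 0.00312 by limma). At 4 weeks the log2 fold change was -0.47 (SE 0.17, adjusted p = 0.0304), under the 1.5-fold criterion. The call at 2 weeks was lost without 2 weeks bleomycin mouse 4 (-0.53, adjusted p = 0.0105) and with edgeR on the recovered reads (-0.57, adjusted p = 0.00684), in both cases through the fold criterion.

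Pparg encodes the nuclear receptor that makes and maintains fat cells, and lies on chromosome 6 at 115360951 to 115490399 on the plus strand. It ran from 202 to 409 normalized counts in saline (median 326), from 151 to 312 at 2 weeks (median 233) and from 166 to 274 at 4 weeks (median 216). Of the bleomycin mice, 3 of 10 and 4 of 10 lay below every saline mouse. These counts rest on saline mouse 1, the lowest at 202. The next lowest saline mouse was at 265, above the medians of both bleomycin groups. Its log2 fold changes were -0.45 (SE 0.12, adjusted p = 0.00343 by limma) and -0.53 (SE 0.12, adjusted p = 0.000696), so the p criterion was met at both times and the fold criterion at neither. Without saline mouse 1 the value at 4 weeks was -0.59 and the gene was called.

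Of the droplet genes, only Plin1 was called. Plin1 encodes perilipin-1, which coats the droplet of fat cells and gates the access of lipases, and lies on chromosome 7 at 79720218 to 79732903 on the minus strand. It ran from 388 to 1350.3 normalized counts in saline (median 906), from 245 to 1024 at 2 weeks (median 579) and from 329 to 769.8 at 4 weeks (median 553). The log2 fold changes were -0.66 (SE 0.21, adjusted p = 0.0122 by limma) and -0.64 (SE 0.21, adjusted p = 0.0143). Few mice lay outside the saline range (2 of 10 and 1 of 10), but its lower end, 388, was that of saline mouse 1. The next lowest saline mouse was at 640, above the medians of both bleomycin groups. The call was close to the fold criterion: at 2 weeks it was lost without mouse 2 (-0.53) or mouse 7 (-0.56) of that group and with edgeR (-0.58), and at 4 weeks without saline mouse 8 (-0.57) or 4 weeks bleomycin mouse 3 (-0.56).

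Plin4 and Cidec were not called at either time. Plin4, another perilipin of fat and muscle cells (chromosome 17, 56100591 to 56109803, minus strand), ran from 969 to 4634 normalized counts in saline (median 2308), from 1327 to 3524 at 2 weeks (median 2349) and from 1914 to 3402 at 4 weeks (median 2599.5). Cidec, whose product enlarges droplets by fusion (chromosome 6, 113424634 to 113435760, minus strand), ran from 843 to 2614 in saline (median 1616), from 707 to 2057 at 2 weeks (median 1363) and from 1082 to 1940.3 at 4 weeks (median 1513). No bleomycin mouse left the saline range except 1 mouse at 2 weeks for Cidec. The lower end of that range was saline mouse 1 for both genes. The next lowest saline mice were at 1960 for Plin4 and 1253 for Cidec, above the lowest mice of both bleomycin groups. The log2 fold changes of Plin4 were -0.01 and 0.17 (SE 0.17 in both, adjusted p = 0.974 and 0.471 by limma) and those of Cidec -0.30 and -0.09 (SE 0.18 in both, adjusted p = 0.214 and 0.732). Without saline mouse 1 the Plin4 values were -0.15 and 0.03, without 2 weeks bleomycin mouse 2 the first was 0.08, and Cidec at 4 weeks was -0.19 without saline mouse 1. Plin4 overlaps Hdgfl2, on the opposite strand with a mean of 457 normalized counts, and the strand setting of the counting was not given in the sources used here, so some of its reads may be those of its neighbour.

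Lpl encodes lipoprotein lipase, which frees fatty acids from lipoproteins for uptake, and lies on chromosome 8 at 68880491 to 68907448 on the plus strand. It is not particular to fat cells, being made also by muscle and macrophages. Its normalized counts ran from 5628 to 8207 in saline (median 6666), from 3144 to 5649 at 2 weeks (median 4128) and from 3249.55 to 4399.9 at 4 weeks (median 3654). At 2 weeks 9 of 10 mice lay below every saline mouse, and at 4 weeks all 10 did, as for 2.21% of all genes. The gene fell by 0.66 (SE 0.09, adjusted p = 3.01e-07 by limma) and then 0.85 (SE 0.09, adjusted p = 1.09e-09) on the log2 scale, the least error of the 10 genes. These calls held in every alternative fit and with each mouse of the compared groups left out.

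Fabp4, the gene of the fatty acid carrier of fat cells, endothelium and macrophages (chromosome 3, 10204088 to 10208576, minus strand), was called only at the later time. It ran from 4841 to 7886 normalized counts in saline (median 6461), from 3536 to 7674 at 2 weeks (median 5507) and from 2556 to 5101 at 4 weeks (median 3570.4). At 4 weeks 9 of 10 mice lay below every saline mouse, against 3 of 10 at 2 weeks. The log2 fold change was -0.28 (SE 0.13, adjusted p = 0.0888 by limma) at 2 weeks and -0.79 (SE 0.13, adjusted p = 2.83e-06) at 4 weeks. The direct difference between 4 and 2 weeks was -0.52 (SE 0.13, adjusted p = 0.0115), which met the p criterion but not the fold criterion. By both criteria none of the 10 genes was called between 2 and 4 weeks, where 2.35% of all genes were, and edgeR and DESeq2 on the recovered reads called none. At an unadjusted p under 0.05 there were 2 of the 10, where 20.8% of all tested genes reached it.

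Lipe, the lipase that acts on the droplet after perilipin-1 is phosphorylated (chromosome 7, 25379527 to 25398710, minus strand), ran from 1174 to 1997 normalized counts in saline (median 1430.1), from 657 to 1676 at 2 weeks (median 1151) and from 696 to 1586 at 4 weeks (median 1249). The bleomycin mice spread widely, with 5 of 10 below every saline mouse at each time and the others inside the saline range. The log2 fold changes were -0.40 (SE 0.15, adjusted p = 0.0294 by limma) and -0.34 (SE 0.15, adjusted p = 0.0686), both under the fold criterion.

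**Figure D2:**
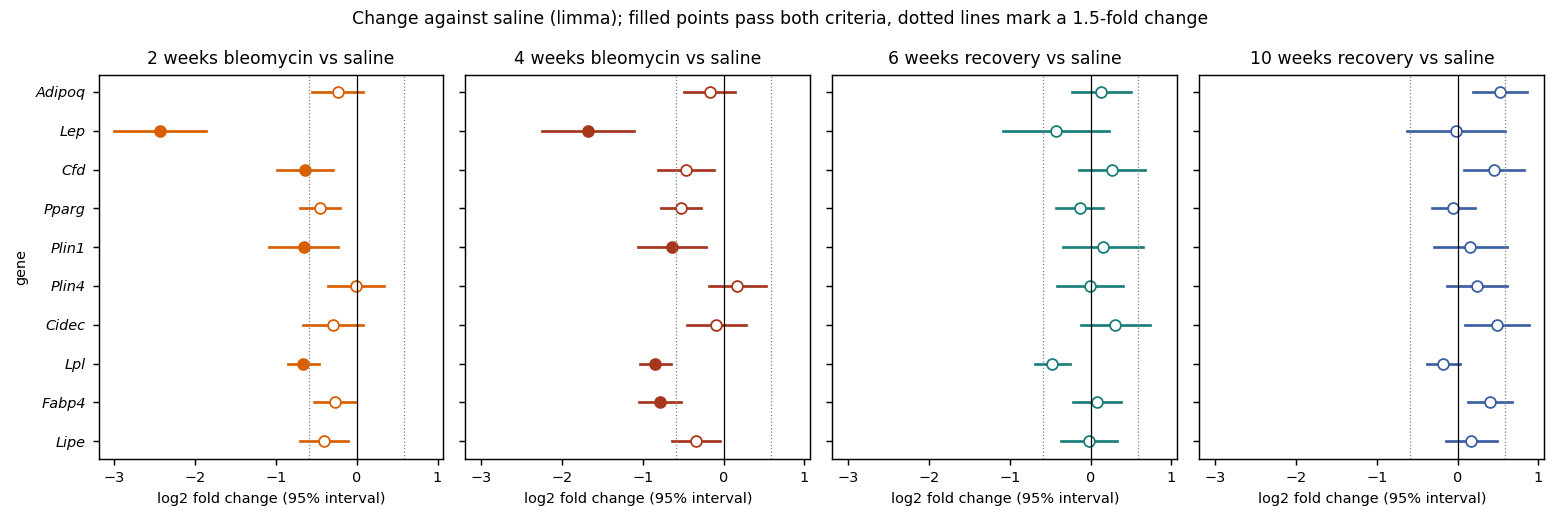
Log2 fold change against saline of each gene, with its 95% interval, in 4 panels for 2 and 4 weeks of bleomycin and 6 and 10 weeks of recovery. Filled points pass both criteria and dotted lines mark a 1.5-fold change: 4 points are filled under each bleomycin time and none in recovery, and Lep at -2.43 and -1.68 lies farthest from 0.

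The second question was whether the genes came back once bleomycin stopped. After 6 weeks of recovery none of the 10 genes was called against saline, where 5.04% of all genes were, and after 10 weeks none was, where 3.05% were. At an unadjusted p under 0.05 there were 1 and 4 of the 10, where 24.8% and 19.1% of all tested genes reached it, and edgeR and DESeq2 on the recovered reads also called none. Their median log2 fold change was 0.03 at 6 weeks and 0.20 at 10 weeks, and -0.02 and 0.12 without saline mouse 1. Between 10 and 6 weeks of recovery none was called either, as for nearly all genes (0.088% called), nor by edgeR or DESeq2. An unadjusted p under 0.05 was found for 3 of the 10 and for 12% of all tested genes.

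Compared directly with 4 weeks of bleomycin, 4 of the 10 genes were called higher after 6 weeks of recovery (Lep, Cfd, Plin1 and Fabp4) and none lower, where 4.8% of all genes were called higher and 7.14% lower. Lep ran from 247 to 770.2 normalized counts (median 295), so that all 6 mice lay above the 10 bleomycin mice. The log2 difference was 1.24 (SE 0.33, adjusted p = 0.0037 by limma). Fabp4 was likewise above them in all 6 mice, at 5648 to 8142 (median 6708), by 0.86 (SE 0.15, adjusted p = 1.63e-05). A group wholly above the other was found for 4.44% of all genes in this comparison.

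Cfd at 6 weeks of recovery ran from 10195 to 18719 normalized counts (median 14349) and Plin1 from 747 to 1241 (median 988), each with 5 of 6 mice above every mouse at 4 weeks of bleomycin. Cfd rose by 0.73 (SE 0.20, adjusted p = 0.0054 by limma) and Plin1 by 0.80 (SE 0.24, adjusted p = 0.0132) on the log2 scale. Pparg (229 to 318, median 281) and Lpl met only the p criterion, at 0.39 (adjusted p = 0.0399) and 0.37 (adjusted p = 0.00964). Adipoq (1606 to 2678), Plin4 (1887 to 3356), Cidec (1570.03 to 2526) and Lipe (1234 to 1723) were not called.

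With all mice, Lpl had the lowest log2 fold change of the 10 genes against saline at both recovery times. Lep was close to it at 6 weeks, at -0.43 (SE 0.33, adjusted p = 0.431 by limma). For Lep, 2 of 6 mice lay below every saline mouse and 1 above all of them. Without saline mouse 1, Lep was lower than Lpl at 6 weeks (-0.52 and -0.47). At 6 weeks of recovery Lpl ran from 3975 to 5436 normalized counts (median 4748), and all 6 mice lay below the 10 saline mice, which was so for 0.54% of all genes. The log2 fold change against saline was -0.47 (SE 0.11, adjusted p = 0.00403 by limma), under the fold criterion. At 10 weeks it ran from 4027 to 7768 (median 5879) and 3 of 8 mice still lay below every saline mouse, with a log2 fold change of -0.18 (SE 0.10, adjusted p = 0.35).

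At 10 weeks Adipoq ran from 1982 to 4722 normalized counts (median 2882), with 5 of 8 mice higher than all saline mice. Its log2 fold change was 0.53 (SE 0.17, adjusted p = 0.0479 by limma), which met the p criterion and not the fold criterion, and without 10 weeks recovery mouse 8 it was 0.61 and called. It was 0.43 without saline mouse 1 (adjusted p = 0.0927 by limma). Cfd (12032.5 to 22868.5, median 15547), Fabp4 (6351 to 11472, median 8214) and Cidec (1593 to 2970.35, median 2157) had 4, 4 and 3 of 8 mice above every saline mouse. Their log2 fold changes were 0.45, 0.40 and 0.49 (adjusted p = 0.147, 0.0673 and 0.132), none past the test. Lep (249 to 1079, median 388), Pparg (189 to 415, median 313), Plin1 (588 to 1408, median 895), Plin4 (2201 to 3903, median 2597) and Lipe (1207 to 2064, median 1728) had log2 fold changes between -0.05 and 0.24 with adjusted p of at least 0.549. These ran from -0.12 to 0.13 without saline mouse 1, with Plin4 at 0.10 and Plin1 at 0.03.

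To compare the genes with each other inside the same mouse, each was set against Adipoq as a log2 ratio. Adipoq was taken as the reference after its values were seen. At 2 weeks the ratio differed from saline for 2 of the 9 genes, Lep and Cfd, and at 4 weeks for 6 of 9, all lower. The 36 comparisons were made by two-sided permutation of the mice, exact where a group held fewer than 10, and adjusted together.

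The mean log2 ratio of Lep to Adipoq went from -2.09 ± 0.40 in saline to -4.28 ± 0.60 at 2 weeks (SD, n = 10 each). The difference was -2.20 (permutation p = 1e-05, the smallest that the resamples allow, adjusted p = 0.00036), and the groups did not overlap. At 4 weeks the difference was -1.5 (permutation, adjusted p = 0.000658). Lpl differed by -0.67 and Fabp4 by -0.62 at 4 weeks (permutation, adjusted p = 0.000658 for both), Plin1 by -0.47 (0.029), Pparg by -0.35 (0.00144) and Cfd by -0.29 (0.0068). For Plin4, Cidec and Lipe the 4 weeks differences were 0.34, 0.08 and -0.17, and none passed (permutation, adjusted p = 0.0716, 0.593 and 0.471). Without the mice that stood apart the Lipe difference was -0.10 (permutation, adjusted p = 0.637). At 2 weeks Lpl differed by -0.42 (permutation, adjusted p = 0.0565), which passed without the mice named above (-0.42, adjusted p = 0.00352).

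In recovery the ratio of Lpl to Adipoq was still lower than in saline, by -0.60 at 6 weeks (exact permutation, adjusted p = 0.00949) and -0.71 at 10 weeks (exact permutation, adjusted p = 0.00223). Pparg relative to Adipoq was lower at 10 weeks by -0.58 (exact permutation, adjusted p = 0.000658). The other 7 ratios did not pass at 10 weeks, although Plin1 passed without the mice named above (-0.40, adjusted p = 0.0488 by exact permutation). The log2 fold changes behind these ratios at 10 weeks were 0.53 for Adipoq, -0.05 for Pparg and -0.18 for Lpl.

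**Figure D3:**
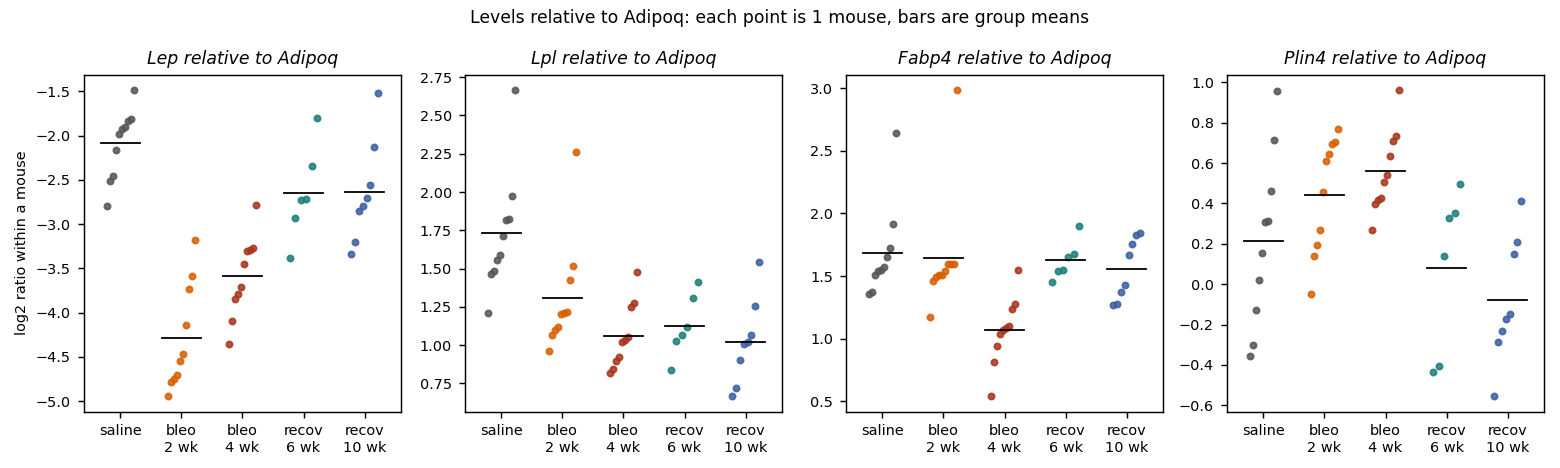
Log2 ratio of Lep, Lpl, Fabp4 and Plin4 to Adipoq within each mouse, by group. Points are mice sorted by level within a group and bars are group means: the Lep ratio is lowest at 2 weeks (mean -4.28), the Fabp4 ratio is lowest at 4 weeks, and the Lpl ratio stays low in recovery.

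Mice of the same group also varied, and the fat cell genes varied together. After group means were taken off, all 9 genes correlated with Adipoq over the 44 mice, tested by permutation within groups and adjusted over the 9. The closest were Cfd (Pearson's r = 0.83, permutation p = 1e-05, adjusted p = 3e-05, Spearman's rho = 0.81, adjusted p = 3e-05) and Cidec (r = 0.75, rho = 0.74, permutation p = 1e-05 for each). The weakest were Fabp4 (r = 0.47, rho = 0.56, permutation p = 0.00182 and 0.00011) and Lipe (r = 0.38, rho = 0.43, permutation p = 0.0133 and 0.0034). With the 2 mice of most extreme Adipoq left out, r was 0.83 for Cfd, 0.73 for Cidec, 0.73 for Fabp4 and 0.35 for Lipe.

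Pparg (r = 0.74), Plin1 (0.69), Plin4 (0.64), Lep (0.63) and Lpl (0.52) lay between (permutation p of at most 0.00126). With the 2 mice of most extreme Adipoq left out, these r were 0.65, 0.53, 0.45, 0.53 and 0.64 in that order. Within single groups r for Cfd was 0.73 to 0.97, and r for Lep was 0.81 at 2 weeks but -0.29 at 4 weeks of bleomycin (n = 10 each, not tested). Of all tested genes, Amy1 (r = 0.89), an amylase gene, and Ghr (0.88), the growth hormone receptor, were most like Adipoq in this measure, followed by Ankef1, Adhfe1, Cd36, Abcd2, Car3, Bche, Ces1d and Car5b (down to 0.84). Among them are the fatty acid carrier Cd36 and the carbonic anhydrase Car3. By the same ranking Cfd was 15th, Cidec 35th, Pparg 47th, Plin1 109th and Lipe 2225th.

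**Figure D4:**
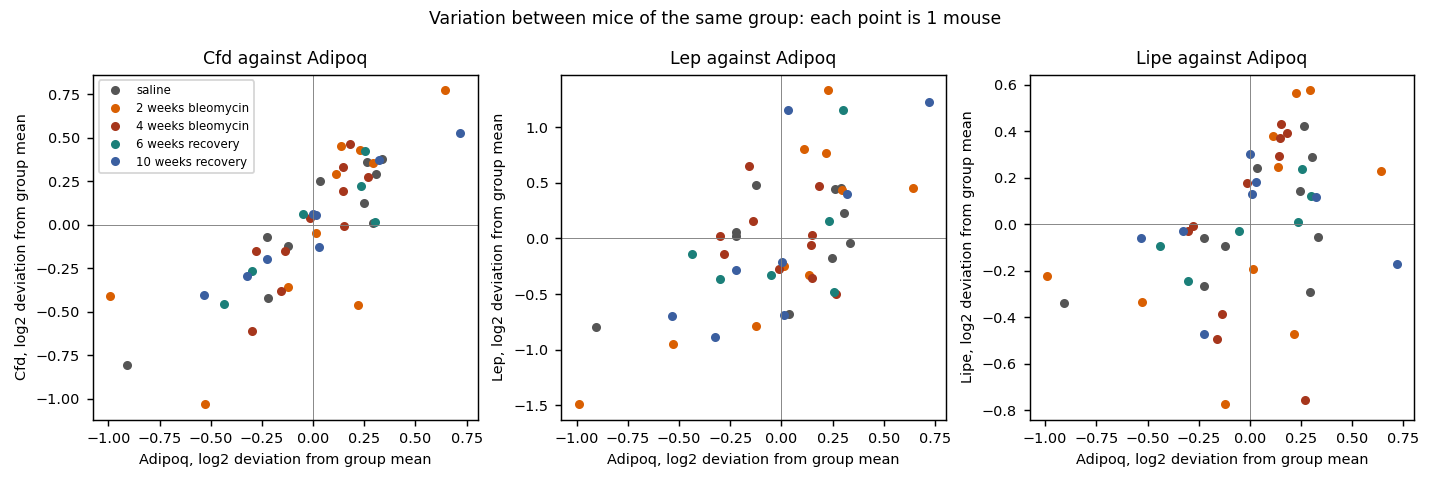
Log2 deviation of each mouse from its group mean, for Cfd, Lep and Lipe against Adipoq. Points are the 44 mice coloured by group. Cfd follows Adipoq closely (r = 0.83) and Lipe loosely (r = 0.38).

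Markers of other parts of the skin moved with the same groups, and their part in the results was not tested. Of 7 sebaceous gland markers, 6 were called lower at 2 and at 4 weeks. Their summed normalized count was 4268 to 11462 in saline (median 9345), 2232 to 5611 at 2 weeks (median 3359), 2438 to 4068 at 4 weeks (median 3246), 7858 to 10254 at 6 weeks of recovery (median 8833) and 5073 to 8361 at 10 weeks (median 6169.8). All 7 tested markers of growing hair follicles were called lower at both times. Their sum was 2054 to 218845 in saline (median 41034), 39.0 to 1949 at 2 weeks (median 50.5), 36.2 to 4751 at 4 weeks (median 60.3), 103 to 100924 at 6 weeks (median 10903.5) and 1364 to 166453 at 10 weeks (median 91111). The medians of the hair markers, and of all of the 10 fat cell genes except Plin4, were lower in both bleomycin groups than in any other group. The lowest was at 2 weeks for the hair markers, Lep, Cfd, Adipoq, Cidec and Lipe. It was at 4 weeks for Plin1, Lpl, Pparg and Fabp4.

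Of 8 macrophage markers, 5 were called higher and Cd163 lower at both times, with sums of 8562 to 23424 in saline, 21005 to 39623 at 2 weeks and 19443 to 36360.0 at 4 weeks. Of 7 vessel markers 3 were called higher at both, and of 8 muscle markers Mb alone. Of 6 fibroblast markers 3 were called lower at 2 weeks and none at 4 weeks, and they summed to 97749.7 to 227172 in saline, 49270.3 to 173289 at 2 weeks and 82996 to 226722 at 4 weeks. Within groups, the mean level of the sebaceous list (r = 0.57, rho = 0.41) and of the muscle list (r = 0.61, rho = 0.48) correlated with Adipoq (permutation, adjusted p = 0.00154 for r and 0.0218 and 0.0136 for rho, over 7 lists). Leaving out the 2 mice with the most extreme Adipoq gave r of 0.34 and 0.38, so much of these relations rests on them. The hair list gave r = -0.29 and the macrophage list -0.02 (permutation, adjusted p = 0.102 and 0.913).

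The other fat cell genes were taken from 9 lists by role, 79 genes tested. At 2 weeks 22 of them were called lower (27.8%, beside 7.43% of all tested genes) and 4 higher (5.06%, beside 9.3%). At 4 weeks 24 were called lower (30.4%, beside 7.37%) and 5 higher (6.33%, beside 10.5%). When bleomycin at 4 weeks was followed by recovery for 6, 23 rose (29.1%, beside 4.8% of all tested genes) and 2 fell (Apln and Vldlr, 2.53% beside 7.14%). Against saline, 1 was lower and 4 higher at 6 weeks of recovery, and 1 lower and 3 higher at 10 weeks. These were 6.33% and 5.06% of the 79 genes, near the 5.04% and 3.05% of all tested genes called, so the counts in recovery do not set the lists apart. The counts without saline mouse 1 were 27 lower and 4 higher at 2 weeks, 27 and 5 at 4 weeks, 1 and 2 at 6 weeks of recovery and 2 and 1 at 10 weeks. Without 2 weeks bleomycin mouse 2 they were 18 and 5 at 2 weeks. Named here after their values were seen, the lower gene was Pdgfra at both times, and the higher ones were Gpihbp1, Fitm1, Cox8b and Dio2 at 6 weeks and Cox7a1, Cox8b and Dio2 at 10 weeks. Without saline mouse 1 the calls were lost for Fitm1 (0.47) and Cox8b (0.57) at 6 weeks and for Cox7a1 (0.62) and Cox8b (0.51) at 10 weeks, and Elovl6 was called lower at 10 weeks (-0.62). Without 2 weeks bleomycin mouse 2, Ppargc1a, also named after its values were seen, was called higher at 10 weeks (0.61). Cox7a1 and Cox8b encode oxidative enzyme subunits of muscle and brown fat, and the muscle gene Mb was also called higher at both recovery times.

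Fatty acid and triglyceride synthesis was the list with most calls: 9 of 15 genes fell at 2 weeks and 10 of 15 at 4 weeks, none rose, and 9 of 15 rose from 4 weeks to recovery. The next 4 genes are named after their values were seen. Without 2 weeks bleomycin mouse 2, Dgat2 (-0.58) and Pck1 (-0.60, adjusted p = 0.0895 by limma) lost their 2 weeks calls. Without saline mouse 1, Me1 was also called lower at 2 weeks (-0.62) and Gpd1 at 2 and 4 weeks (-0.64 and -0.62). Fasn, the fatty acid synthase, ran from 5340.4 to 20469.7 normalized counts in saline (median 10331) and from 1316 to 5679.6 at 2 weeks (median 3659.7). Its log2 fold change was -1.61 at 2 weeks and -1.33 at 4 weeks (SE 0.23, adjusted p = 2.43e-07 and 7.98e-06 by limma). Thrsp, a regulator of lipid synthesis, fell by 1.5 and 1.62, the elongase gene Elovl6 by 1.46 and 1.5, and the desaturase gene Scd1 by 1.32 and 1.14 on the log2 scale. Fasn, Elovl6 and Scd1 are also active in sebaceous glands, whose markers fell too.

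In the lipolysis list 3 of 10 genes fell at 2 weeks and 4 of 10 at 4 weeks, and none rose. Adrb3, the adrenergic receptor of fat cells, ran from 218 to 516 normalized counts in saline (median 353), 65.1 to 253 at 2 weeks (median 150.5) and 77.5 to 155 at 4 weeks (median 115), where all 10 mice lay below every saline mouse. That separation was seen for 2.21% of all genes at 4 weeks. The log2 fold changes of Adrb3 were -1.26 and -1.62 (SE 0.17, adjusted p = 7.17e-08 and 1.58e-10 by limma). Aqp7, the glycerol channel, fell by 0.97 and then 1.85, and it was the only gene of this list called between 2 and 4 weeks (-0.88, SE 0.20, adjusted p = 0.00528). G0s2, an inhibitor of the main triglyceride lipase, fell by 0.84 and 0.91, and Mgll, the monoglyceride lipase, by 0.69 at 4 weeks. Mgll was also called at 2 weeks without saline mouse 1 (-0.66). Prkar2b, named here after its values were seen, was called lower at 4 weeks without that mouse (-0.59).

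Of 9 other adipokine and receptor genes, Retn (resistin), Rbp4 (retinol-binding protein) and Nrg4 (a neuregulin) fell by 1.33, 1.19 and 1.04 at 2 weeks and by 0.71, 1.02 and 1.17 at 4 weeks. Apln, the gene of apelin, rose by 1.40 at 4 weeks (SE 0.22, adjusted p = 2.12e-06 by limma), and it is made by vessels as well. Without 2 weeks bleomycin mouse 2 it was also called at 2 weeks (0.60).

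Among 8 genes of adipocyte precursors 5 fell and 1 rose at each time. Dpp4 and Pdgfrb are named here after their values were seen. Dpp4 lost its 2 weeks call without 2 weeks bleomycin mouse 2 (-0.55), and Pdgfrb was called lower at 2 weeks without saline mouse 1 (-0.62). Pi16, a marker of early fibroblast-like progenitors, ran from 1887 to 5475 normalized counts in saline (median 4689) and from 311 to 1428 at 2 weeks (median 671). The log2 fold changes were -2.67 and -2.99 (SE 0.23, adjusted p = 8.1e-13 and 3.26e-14 by limma), and at 6 weeks of recovery it was -0.02. Pdgfra, the receptor of mesenchymal progenitors, fell by 1.24 and 1.08 and was still lower in recovery, at -1.02 and -0.93 (SE 0.14 and 0.13, adjusted p = 3.54e-06 and 7.79e-06). Dlk1, which marks preadipocytes, fell by 2.00 and 0.94 from a saline median of only 14.5 normalized counts. Ly6a, the Sca-1 antigen, rose by 1.24 and 0.65.

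The remaining lists had few calls. Of 10 adipocyte transcription factors, Ebf1 fell by 0.59 at 2 weeks (-0.53 and not called without mouse 2 of that group) and Cebpd rose by 0.72 at 4 weeks. Of 8 other droplet genes, Plin5, the perilipin of oxidative tissue, rose by 0.76 at 2 weeks (SE 0.22, adjusted p = 0.00533 by limma) and none was called at 4 weeks, although Plin5 was then called lower without saline mouse 1 (-0.58). Of 7 uptake genes, Angptl4, whose product inhibits lipoprotein lipase, rose by 0.87 at 2 weeks (SE 0.21, adjusted p = 0.00106), with normalized counts of 848 to 1319 against 392 to 1179.5 in saline. Vldlr, a lipoprotein receptor gene, rose by 0.76 and 0.92, and Fabp5 fell by 0.67 at 4 weeks (-0.58 and not called without saline mouse 1). Cd36, named here after its values were seen, was called lower at 4 weeks without saline mouse 1 (-0.61).

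Of 6 thermogenic genes tested, Cidea fell by 1.29 and 1.33, and it is also a sebaceous gland gene, while Dio2 rose by 0.93 at 4 weeks. Ucp1, the defining gene of brown fat, was at 2.89 normalized counts or less in every mouse and was not tested, and it is named here after its values were seen. In the insulin list 0 of 6 tested genes were called by limma, and its most abundant genes had log2 fold changes of -0.11 and -0.14 (Akt2, a kinase of insulin signalling) and 0.14 and 0.33 (Pik3r1, a subunit of phosphoinositide 3-kinase). At an unadjusted p under 0.05 there were 4 of the 6 at 2 weeks and 4 at 4 weeks, where 43.9% and 44.9% of all tested genes reached it, and edgeR and DESeq2 on the recovered reads called 0 of the 6 at either time. Without saline mouse 1, Irs2, an insulin receptor substrate named here after its values were seen, was called lower at 2 weeks (-0.66, adjusted p = 0.0468 by limma).

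**Figure D5:**
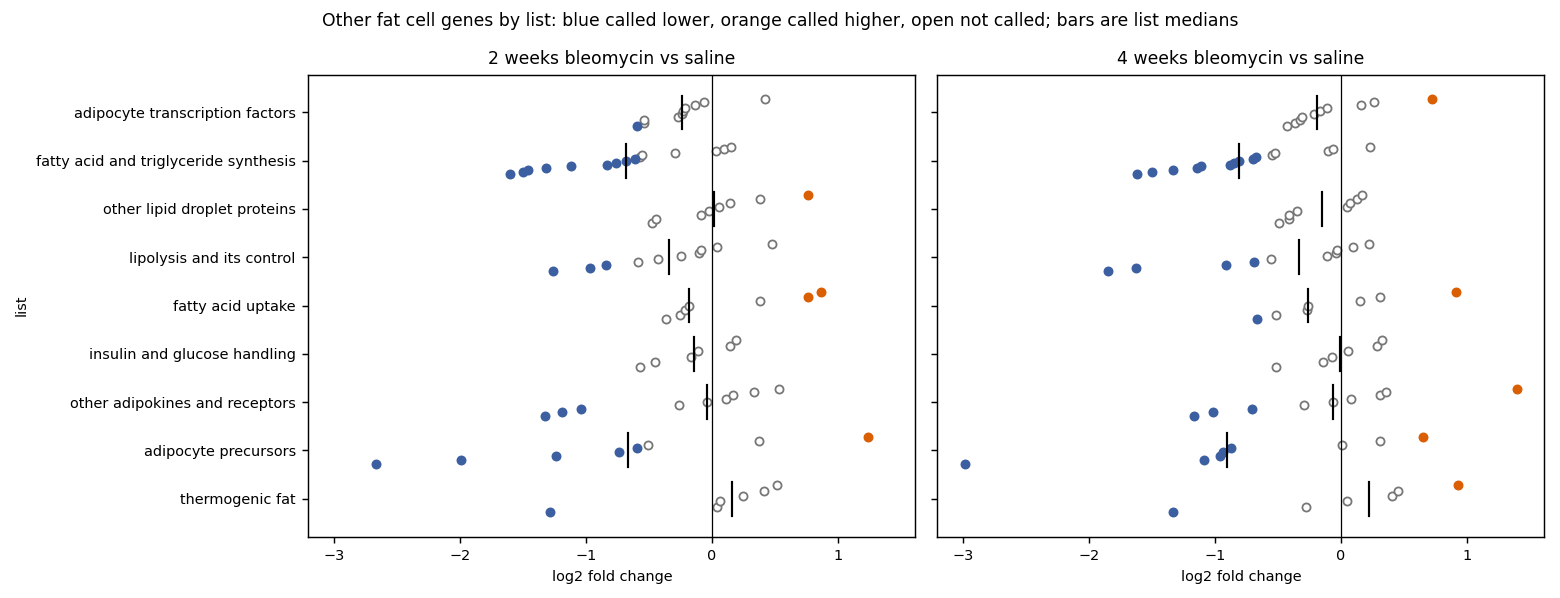
Log2 fold change against saline at 2 weeks (left) and 4 weeks (right) of bleomycin for the other fat cell genes, by list. Blue points were called lower, orange higher and open points not called, and bars are list medians: the synthesis list has 9 and 10 blue points and no orange one.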

How the data were processed

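RNA-seq was made from back skin of 44 mice. Per the sources used here, libraries were prepared with a stranded mRNA kit, and the authors aligned 50-base read pairs to mm10 with STAR 2.4.0 and normalized with DESeq2 1.12.3. The deposited values are a signal, namely counts per gene divided by a size factor for each mouse, and the counting tool, strand setting and annotation were not given in the sources used here. Whole reads were recovered by dividing each value by the value of 1 read (0.730 to 1.30), and 100% of the values above 0 were whole within 0.1; in 43 mice the step named the unit by itself, and in 2 weeks bleomycin mouse 1 it lay too near 1. Of 43411 gene IDs, 98.9% matched a symbol in GENCODE.

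Genes with a mean above 3 were fitted by limma 3.58.1 (R 4.3.3), using its trend option, after 1 was added to each normalized count and log2 taken. A single model held the 5 groups. Fold changes are on that scale, which understates the change of low genes. A call needed an absolute fold change above 1.5 and a Benjamini-Hochberg adjusted p below 0.05 over all genes tested. The quasi-likelihood test of edgeR 4.0.16 and DESeq2 1.42.0 were run on the recovered reads, and the fits were tested on simulated data. Other alternatives were another pseudocount, filters, thresholds, quantile and TMM scaling, a replicate block, leaving out each mouse, and leaving out the 2 mice that stood apart.

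Ratios and correlations were tested in Python 3.11.15 with 100000 permutations, or exactly where a group held fewer than 10 mice. The ratio tests were added after the values were seen. The members and the lists of pathway and marker genes were chosen with earlier results of these data known, and 3 listed genes were not analysed here. Genes named from each list were at most the 4 called genes with the largest change at 2 and then 4 weeks of bleomycin, or the 2 with the highest mean where none was called. Exceptions are named in the text as chosen after their values were seen. Positions are from GENCODE M21 on GRCm38. Nothing states that mice of 1 group were treated on separate days, so p-values measure the spread between mice only.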

Additional observations from a re-analysis of the deposited data

Results flagged for a closer look

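For 1 of 50 sets of values (10 genes in 5 groups), a mouse lay far from the others of its group: Adipoq in saline mouse 1 was at 1059.97 normalized counts, where the next lowest saline mouse was at 1703.29. The gap was 0.551 of the range of the 10 mice. Chance alone marks about 1 set in 20 by the criterion used. The same mouse was the lowest of its group for 8 of the 10 fat cell genes, and for Lpl (6738 normalized counts) and Fabp4 (6617) it ranked sixth from the lowest.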

How the results depend on the processing

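The 4 calls at 2 weeks, the 4 at 4 weeks and the 4 in recovery against 4 weeks of bleomycin held their direction under every alternative. The counts of called genes moved under some of them. At 2 weeks edgeR called 2. Without the fold criterion 1 gene was called at 6 weeks of recovery (Lpl), 1 at 10 weeks (Adipoq) and 1 between 4 and 2 weeks (Fabp4). Pparg and Lipe were then also called lower at 2 weeks, and Cfd and Pparg at 4 weeks. Pparg and Lpl were then also called higher in recovery against 4 weeks of bleomycin. A log2 threshold of 0.5 gave 1 call at 10 weeks of recovery and 1 between 4 and 2 weeks, and added Pparg at 4 weeks. Leaving out each mouse of the compared groups gave 3 to 4 calls at 2 weeks, 3 to 5 at 4 weeks, 0 to 1 at 10 weeks of recovery and between 4 and 2 weeks, 0 at 6 weeks and between recovery times, and 4 for recovery against 4 weeks. Of 2080 log2 fold changes of the 10 genes under other settings, 2000 kept direction and side of the criteria, 7 lost a call, 17 gained one, and 56 changed sign, all of them near 0 and not called. Where the sign changed, Plin4 was 0.0202 at 2 weeks under quantile normalization (-0.15 to 0.10 leaving out mice) and -0.15 to 0.10 at 6 weeks of recovery, Lipe -0.0717 to 0.0244 at 6 weeks and -0.0213 to 0.15 between 4 and 2 weeks, Lep at 10 weeks 0.14 with edgeR and 0.15 with DESeq2 (-0.19 to 0.11), and Pparg at 10 weeks -0.12 to 0.0388. Between 4 and 2 weeks Adipoq was -0.0465 without the 2 mice that stood apart (-0.0465 to 0.14) and Plin1 -0.11, with edgeR -0.0685 and with DESeq2 -0.0698 (-0.11 to 0.11). Plin1 between recovery times was -0.019 under quantile normalization and -0.0021 under TMM (-0.0749 to 0.10). Without the 2 mice the correlation with Adipoq was 0.32 for sebaceous and 0.36 for muscle markers (permutation, adjusted p = 0.171 for both), and the ratio to Adipoq at 6 weeks turned to -0.0035 for Plin1 and 0.051 for Fabp4; under quantile normalization the macrophage correlation was 0.0336. The cause was not tested.

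The replicate numbers are shared between groups but the mice are different animals: over 78 same-numbered pairs the correlation of deviations ran from -0.69 to 0.38, and 4 of 44 mice matched their own number best, so no pairing was taken. With the replicate block the counts were 4, 4, 0, 0, 4 and 0, and 1 at 10 weeks of recovery (Cidec, 0.59). Of all genes, 16.7%, 17.8%, 6.63%, 2.39%, 12.3% and 0.106% were then called, and 3.77% at 10 weeks of recovery. Plin4 was then 0.089 and Lipe 0.12 at 6 weeks, and Plin1 -0.0435 between recovery times.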
